A study of Mus musculus with 2 samples.

Results

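The TAM receptors Mertk, Axl and Tyro3, the bridging proteins Gas6, Pros1 and Mfge8, and the receptor Timd4 were followed in single macrophages from mouse melanoma tumors. The members were the 7 genes with these symbols in the deposited gene tables, out of 27998 genes, and all 7 were found. Cells were mononuclear phagocytes sorted as MerTk+ CD64+ from tumors of B16, a mouse melanoma line, grown in C57Bl/6 mice. There was 1 library from Fcmr+/+ mice and 1 from Fcmr-/- mice, which lack Fcmr (Toso), a receptor for IgM. The number of mice behind each library is not stated, so each genotype is 1 sample, a difference between genotypes and a difference between libraries cannot be told apart, and no test between them was made.

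Dying cells expose phosphatidylserine on their surface, and macrophages remove them by efferocytosis. Gas6 and Pros1 (protein S) bind phosphatidylserine at one end and a TAM receptor tyrosine kinase at the other. Gas6 is a ligand of all TAM receptors, whereas Pros1 binds Mertk and Tyro3. Mfge8 links phosphatidylserine to alpha-v integrins, and Timd4 (Tim-4) binds it directly. Mertk is known as the TAM receptor of resting and tissue-resident macrophages, and Axl as the one raised by interferon and inflammatory signals. TAM receptors also dampen inflammatory signaling, for which they are studied in tumors.

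The values are counts of unique molecular identifiers (UMIs, 1 per captured transcript molecule) read near the 3' end of transcripts. After the study's limits on cells, 6352 Fcmr+/+ cells with 128408544 UMIs and 7999 Fcmr-/- cells with 124630621 UMIs were kept. The median cell held 17973.5 UMIs in the Fcmr+/+ library and 12911 in the Fcmr-/- library. Levels are given as the summed UMIs of a gene per 1000000 UMIs of the same cells (CPM), with exact Poisson intervals, and shares of cells with exact binomial intervals, all at 95%. Intervals cover counting error only, since the spread between mice is not known. The CPM intervals treat every UMI as independent, so they also leave out the spread between cells. For shares of cells, every cell was first thinned at random to 5000 UMIs, which left out 0 cells, because a deeper cell shows more genes. No cell type in the sort is known to lack these genes, so the share of cells with a UMI that free RNA alone would give is not known. The 73 cell barcodes found in both libraries are 1.15% of the Fcmr+/+ and 0.913% of the Fcmr-/- cells. Macrophage markers were abundant in every cluster described here, with a summed level from 10290 to 17649 CPM.

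To show the regulatory sequence of the genes described in most detail, the 250 bases before the RefSeq start site of Mertk, Axl, Gas6 and Pros1 are shown 5' to 3' on the strand of the gene (RefSeq, GRCm38.p6). Mertk lies on the plus strand of chromosome 2 (the window is chr2:128698665-128698914), Axl on the minus strand of chromosome 7 (chr7:25788734-25788983), Gas6 on the minus strand of chromosome 8 (chr8:13494536-13494785) and Pros1 on the plus strand of chromosome 16 (chr16:62854057-62854306). Each window lies just outside the GENCODE annotation of its own gene, which spans 128698956 to 128802894 for Mertk (ENSMUSG00000014361), 25757273 to 25788705 for Axl (ENSMUSG00000002602), 13465374 to 13494490 for Gas6 (ENSMUSG00000031451) and 62854307 to 62929346 for Pros1 (ENSMUSG00000022912). Capitals mark GC boxes on either strand and, in Pros1 alone, a GAS motif.
Mertk: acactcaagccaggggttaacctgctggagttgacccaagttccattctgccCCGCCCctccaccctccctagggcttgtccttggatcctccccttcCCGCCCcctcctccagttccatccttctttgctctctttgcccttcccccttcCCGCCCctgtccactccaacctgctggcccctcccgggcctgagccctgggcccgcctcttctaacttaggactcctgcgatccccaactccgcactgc
Axl: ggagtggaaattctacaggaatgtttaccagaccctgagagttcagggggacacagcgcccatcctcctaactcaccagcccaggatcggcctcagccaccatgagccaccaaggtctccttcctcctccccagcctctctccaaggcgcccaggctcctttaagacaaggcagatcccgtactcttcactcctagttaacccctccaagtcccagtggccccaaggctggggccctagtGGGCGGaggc
Gas6: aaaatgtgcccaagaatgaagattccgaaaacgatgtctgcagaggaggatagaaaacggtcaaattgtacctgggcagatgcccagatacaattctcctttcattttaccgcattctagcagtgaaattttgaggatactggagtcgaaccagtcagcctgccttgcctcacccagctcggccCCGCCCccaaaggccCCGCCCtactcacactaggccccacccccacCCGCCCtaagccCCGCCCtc
Pros1: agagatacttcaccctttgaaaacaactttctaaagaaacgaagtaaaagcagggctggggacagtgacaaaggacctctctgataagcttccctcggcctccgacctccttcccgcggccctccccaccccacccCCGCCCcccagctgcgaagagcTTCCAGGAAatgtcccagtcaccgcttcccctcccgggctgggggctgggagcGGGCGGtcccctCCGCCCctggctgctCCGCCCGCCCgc
The interferon gamma activated sequence (GAS, searched as TTCNNNGAA) was matched in 1 of the 7 members, Pros1, as TTCCAGGAA from -92 to -84, and in 7.02% of 32851 RefSeq promoters of the same length. The interferon-stimulated response element (ISRE, searched on both strands as GAAA, any 2 bases and GAAA again) was matched in 0 of the 7 members and in 2.98% of promoters. GC boxes (GGGCGG on either strand) were matched in 6 of the 7 members and in 32.7% of promoters. The Axl window held neither interferon motif. A missing match says only that these letters are absent from this window.

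Of the receptors, Mertk was lower and Axl higher in the Fcmr-/- library. Mertk reached 62.8 CPM (61.4 to 64.2) in the Fcmr+/+ library and 48.7 CPM (47.5 to 49.97) in the Fcmr-/- library, a log2 ratio of -0.36 after 1 CPM was added to each value. Its protein was one of the gates of the sort, so this is a level among cells chosen for surface MerTk. Axl had 37.1 CPM (36.0 to 38.1) in Fcmr+/+ cells and 60.5 CPM (59.1 to 61.9) in Fcmr-/- cells, a log2 ratio of 0.69. Axl made up 37.1% (36.3 to 38.0) of all Mertk and Axl UMIs in the Fcmr+/+ library and 55.4% (54.6 to 56.2) in the Fcmr-/- library. The shares of cells moved in the same directions. After thinning, 25.4% (24.3 to 26.5) of Fcmr+/+ and 19.4% (18.5 to 20.3) of Fcmr-/- cells had a Mertk UMI, and 13.5% (12.7 to 14.4) and 20.2% (19.4 to 21.1) had an Axl UMI. Without thinning these shares were 58.7% and 43.4% for Mertk and 33.8% and 39.4% for Axl. Tyro3 was scarce, with 10 UMIs in 9 cells of the Fcmr+/+ library and 10 UMIs in 10 cells of the Fcmr-/- library, so the sorted cells carried transcripts of Mertk and Axl and almost none of the remaining TAM receptor.

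**Figure D1:**
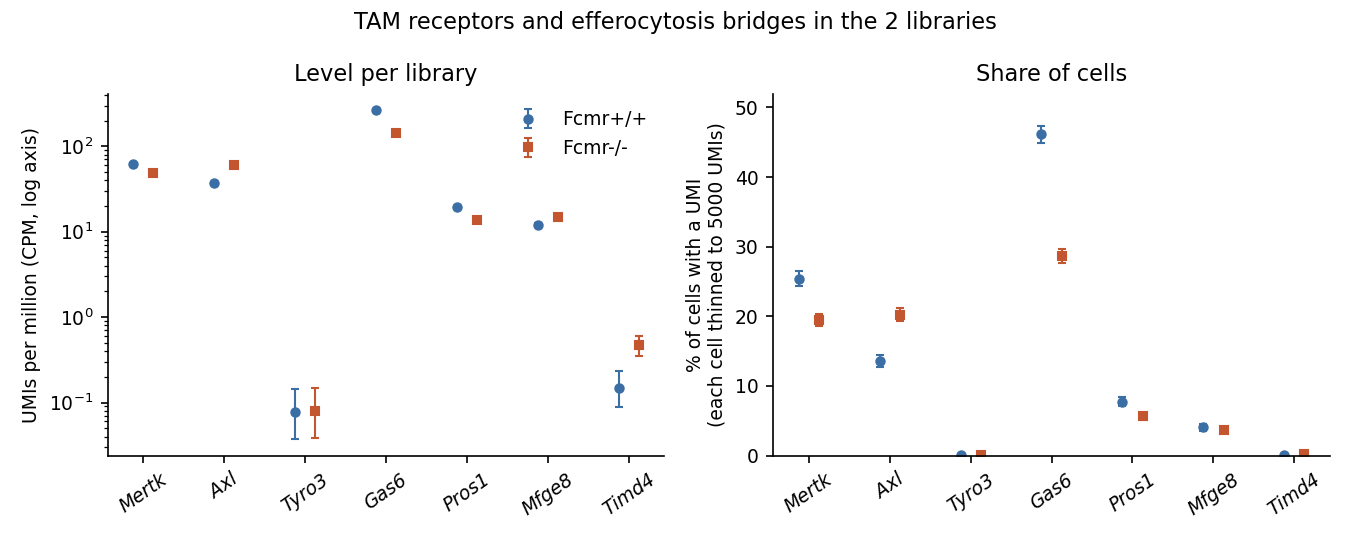
The 7 genes in both libraries, as CPM on a log axis (left) and as the percent of cells with a UMI after thinning (right). Circles are Fcmr+/+ and squares Fcmr-/- cells, and bars are 95% counting intervals. Axl is higher and Mertk, Gas6 and Pros1 are lower in Fcmr-/- cells, and Tyro3 and Timd4 lie under 1 CPM in both.

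Of the bridges, both TAM ligands were lower in the Fcmr-/- library. Gas6 had 263 CPM (260.5 to 266.1) in Fcmr+/+ cells and 144 CPM (142 to 146) in Fcmr-/- cells, a log2 ratio of -0.87. A Gas6 UMI was found in 46.1% (44.9 to 47.3) of thinned Fcmr+/+ cells and in 28.6% (27.6 to 29.6) of thinned Fcmr-/- cells. Pros1 had 19.4 CPM (18.6 to 20.2) and 13.8 CPM (13.2 to 14.5), a log2 ratio of -0.46. This ratio was -0.27 when each cluster of cells was given the same weight in both libraries. It was -0.17 without clusters 1, 7 and 8, which are mostly Fcmr-/- cells. Mfge8, the integrin bridge, had 11.9 CPM (11.4 to 12.6) and 14.8 CPM (14.1 to 15.5), a log2 ratio of 0.29. Its UMIs were unevenly spread, with up to 92 in a single Fcmr+/+ cell and 83 in a single Fcmr-/- cell, and the share of thinned cells with one was 4.05% (3.57 to 4.56) and 3.73% (3.32 to 4.16). Timd4 was carried by 14 Fcmr+/+ cells with 19 UMIs and 24 Fcmr-/- cells with 58 UMIs.

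In all, 5 members had at least 5 CPM in either library. Axl was past 1.5-fold higher in Fcmr-/- cells, as were 2.4% of the 8701 genes at that level, and Gas6 was past 1.5-fold lower, as were 1.69% of them, so that 2 of 5 members stood beside 4.09% of all such genes past the fold in either direction. Mertk, Pros1 and Mfge8 were within 1.5-fold. The targeted gene gave no check of the labels, since 7 Fcmr UMIs were counted in the Fcmr+/+ library and 6 in the Fcmr-/- library. Markers of other cells also differed between the libraries. T and NK cell markers had 2.06 CPM in Fcmr+/+ and 16.0 CPM in Fcmr-/- cells (7 of 7 genes higher, with Ncr1 at 0 in Fcmr+/+ cells), melanoma markers 40.6 and 64.1 CPM (6 of 6 higher) and dendritic cell markers 21.1 and 30.8 CPM (9 of 9 higher). Monocyte markers had 462 and 745 CPM (7 of 8 higher), neutrophil markers 31.2 and 47.6 CPM (4 of 5 higher) and endothelial markers 10.1 and 17.1 CPM (6 of 6 higher), whereas B cell markers had 12.4 and 10.4 CPM (1 of 4 higher) and fibroblast markers were under 1 CPM in both. The part of these cells in the differences of the members was not tested beyond the T and NK cell and melanoma markers. Without the cells that held a T and NK cell or melanoma UMI, which were 41.6% of Fcmr+/+ and 45.9% of Fcmr-/- cells, the log2 ratio was 0.64 for Axl, -0.77 for Gas6 and -0.44 for Mertk.

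To ask where in the macrophage population these genes sat, both libraries were clustered together without the 7 members among the clustering genes. Of 9 clusters, numbered by size, cluster 1 (2358 cells, 96.1% from Fcmr-/-) was led by the interferon gamma-inducible genes Iigp1, Cxcl9 and Gbp2, and cluster 7 (1193 cells, 78.0% from Fcmr-/-) by the antiviral genes Rsad2, Ifit1 and Ifit3. Cluster 8 (937 cells, 80.8% from Fcmr-/-) was led by the member Mfge8, followed by Plpp3, Npy, Cd200 and the macrophage elastase Mmp12. The remaining clusters were mixed. Cluster 2 (2264 cells) was led by Ccl17, Il1r2 and Ear2, and cluster 4 (1785 cells) by Cxcl3, Ppbp and Areg. Cluster 3 (1814 cells) was led by the transferrin receptor Tfrc, Cnrip1, the member Gas6 and Cela1. Cluster 5 (1623 cells) was led by Hbb-bs, Adm and Hspb1, cluster 6 (1495 cells) by the mitosis genes Cenpf, Nusap1 and Prc1, and cluster 9 (882 cells) by Apoe, Acp5 and Abcc3. A cluster that is mostly of 1 library may be that library rather than a state.

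Mertk was broadly spread, with its highest level in the Apoe-led cluster 9 (97.5 CPM, interval 90.8 to 104.7, in Fcmr+/+ and 93.9, 84.2 to 104.3, in Fcmr-/- cells). Cluster 3 came next in both libraries, at 79.3 (76.3 to 82.5) and 66.5 CPM (61.2 to 72.2), and cluster 5 was last, at 38.8 (35.9 to 41.9) and 23.2 CPM (19.7 to 27.1). Between these, clusters 1 and 2 overlapped in both libraries, and so did clusters 4, 6, 7 and 8. In Fcmr+/+ cells cluster 1 (66.9 CPM, 56.0 to 79.2) also overlapped clusters 3, 4, 7 and 8, and cluster 7 (54.7, 47.0 to 63.4) overlapped cluster 2. In 9 of 9 clusters Mertk was lower in Fcmr-/- cells, and in 7 of them the intervals of the libraries did not overlap. The exceptions were cluster 9 and cluster 1, which held only 92 Fcmr+/+ cells. In shares of thinned cells with a Mertk UMI, the intervals were apart only in clusters 2, 4, 5 and 7. With the same weight for each cluster in both libraries Mertk was 62.0 CPM in Fcmr+/+ and 49.5 CPM in Fcmr-/- cells, a log2 ratio of -0.32 beside the -0.36 over all cells. Under other clusterings the cluster highest in Mertk was led by other genes, as given below.

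Axl followed another order. It was highest in cluster 1 (93.3 CPM, 80.4 to 107.7, in Fcmr+/+ and 86.0, 83.3 to 88.9, in Fcmr-/- cells) and next in cluster 2 of the Fcmr+/+ library (56.3, 53.5 to 59.3). In Fcmr-/- cells clusters 2 (70.3, 65.8 to 75.1), 9 (69.2, 61.0 to 78.3) and 6 (69.0, 65.3 to 72.8) came next. Cluster 7 (60.8, 56.0 to 65.8) followed, and the intervals of clusters 2, 6, 7 and 9 overlapped. It was lowest in cluster 8, at 15.9 CPM (11.9 to 20.7) and 10.9 CPM (8.93 to 13.2), though in Fcmr+/+ cells cluster 5 overlapped (22.3, 20.2 to 24.7). Cluster 1 alone held 47.8% of the Axl UMIs of the Fcmr-/- library, beside 33.6% of all its UMIs. In the Fcmr+/+ library it held 3.93% of the Axl UMIs, beside 1.56% of all UMIs. Within clusters, Axl did not move one way. It was higher in Fcmr-/- cells with intervals apart in 5 clusters, most in the dividing cluster 6 (37.3 and 69.0 CPM) and then in cluster 9 (41.4 and 69.2 CPM). It was lower in cluster 4 (31.6 and 19.9 CPM), and the intervals overlapped in clusters 1, 5 and 8. In shares of thinned cells with an Axl UMI, the intervals were apart only in clusters 2, 3 and 6. They overlapped in clusters 4, 7 and 9. With the same weight for each cluster in both libraries, Axl had 46.0 CPM in Fcmr+/+ and 54.9 CPM in Fcmr-/- cells. Cluster 1 entered the Fcmr+/+ value with 92 cells. The log2 ratio was then 0.25 where it had been 0.69. With clusters 1, 7 and 8 left out, it was 0.47. When 20 principal components were used for clustering in place of 10, the highest Axl level, 110.4 CPM, was in a cluster of 219 Fcmr+/+ and 240 Fcmr-/- cells. It was led by Cd209a, Ccl17, Ccr7, Klrd1 and Klrb1b, of which Cd209a and Ccr7 are among the dendritic cell markers used here. That cluster also had the lowest Mertk (26.6 CPM) and Gas6 (25.1 CPM).

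Axl as a share of Mertk and Axl UMIs set the clusters side by side. It was lowest in cluster 8 (23.7%, 18.3 to 29.7, in Fcmr+/+ and 22.6%, 18.9 to 26.7, in Fcmr-/- cells) and highest in cluster 1 of the Fcmr+/+ library (58.3%, 52.6 to 63.7). In Fcmr+/+ cells the interval of cluster 8 overlapped those of cluster 3 (26.7%, 25.3 to 28.2) and cluster 9 (29.8%, 27.1 to 32.6). In Fcmr-/- cells, clusters 1, 2, 6 and 7 had overlapping intervals, at 60.7%, 57.9%, 61.5% and 61.7%. The share was higher in Fcmr-/- cells with intervals apart in clusters 2, 3, 5, 6, 7 and 9, with cluster 6 moving from 42.1% (39.9 to 44.3) to 61.5% (59.4 to 63.6).

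**Figure D2:**
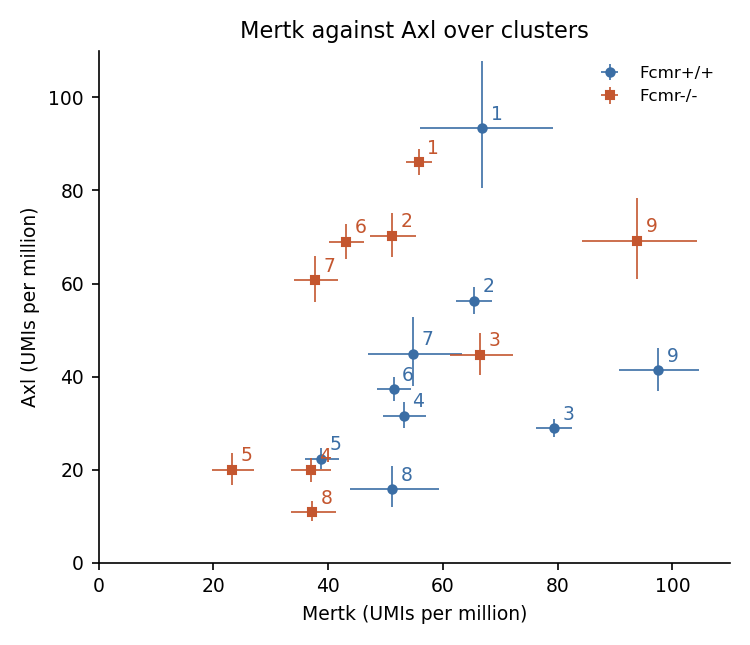
Mertk (x axis, CPM) against Axl (y axis, CPM) in each cluster, numbered, with circles for Fcmr+/+ and squares for Fcmr-/- cells and bars for 95% counting intervals. Cluster 9 is far right for Mertk and cluster 1 is at the top for Axl. Fcmr-/- points of clusters 2, 3, 6, 7 and 9 lie up and to the left of their Fcmr+/+ points, though for cluster 9 the Mertk intervals overlap.

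Gas6 was concentrated in clusters 3 and 6. Cluster 3 had 499 CPM (491 to 507) in Fcmr+/+ and 473 CPM (459 to 488) in Fcmr-/- cells and held 47.2% and 22.8% of all Gas6 UMIs. After thinning, 81.5% and 79.6% of its cells had a Gas6 UMI. The dividing cluster 6 came next, at 354 (346 to 362) and 225 CPM (218 to 232). In Fcmr+/+ cells the lowest levels were in clusters 8 (52.7 CPM, 45.2 to 61.0) and 7 (66.7 CPM, 58.2 to 76.2), whose intervals overlapped. In Fcmr-/- cells cluster 7 was lowest (24.3 CPM, 21.3 to 27.5). The Fcmr-/- library had 6.26% of its cells in cluster 3, beside 20.7% of the Fcmr+/+ library. With the same weight for each cluster in both libraries, Gas6 had 223 CPM in Fcmr+/+ and 186 CPM in Fcmr-/- cells. The log2 ratio was then -0.26 in place of -0.87, and without clusters 1, 7 and 8 it was -0.48. Within clusters it was lower in Fcmr-/- cells with intervals apart in 5 of 9, most in cluster 7 (66.7 and 24.3 CPM) and cluster 4 (116 and 46.3 CPM). In cluster 9 it was higher (141 and 175 CPM). In shares of thinned cells with a Gas6 UMI, the intervals were apart only in clusters 4, 5, 6 and 7, all lower in Fcmr-/- cells.

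Pros1, the other TAM ligand, shared the cells of Gas6 in part. Its highest Fcmr+/+ levels were in cluster 3 (29.2 CPM, 27.3 to 31.1) and cluster 6 (26.9, 24.8 to 29.1), whose intervals overlapped. Cluster 1, with 92 Fcmr+/+ cells, had an interval that overlapped both (22.5, 16.4 to 30.1). In Fcmr-/- cells, clusters 2 (24.1, 21.5 to 27.0), 3 (23.3, 20.2 to 26.8) and 6 (21.1, 19.1 to 23.3) had overlapping intervals. Cluster 7 had the lowest value in both, at 8.0 and 5.7 CPM. Its interval overlapped those of clusters 4, 5 and 8 in both libraries and that of cluster 9 in Fcmr+/+ cells. Mfge8 had its highest level in cluster 8, with 71.8 CPM (63.1 to 81.4) in Fcmr+/+ and 85.2 CPM (79.5 to 91.2) in Fcmr-/- cells, and every other cluster lay between 3.49 and 18.9 CPM. Few cells carried that level: 13.3% (8.73 to 19.2) of thinned Fcmr+/+ and 9.25% (7.28 to 11.5) of thinned Fcmr-/- cells of cluster 8 had an Mfge8 UMI, in the opposite order to the CPM and with overlapping intervals. With 757 of its 937 cells from the Fcmr-/- library, cluster 8 held 45.0% of the Fcmr-/- and 15.9% of the Fcmr+/+ Mfge8 UMIs. Without clusters 1, 7 and 8 the log2 ratio of Mfge8 between the libraries was 0.02. With the same weight for each cluster in both libraries it was 0.23, beside 0.29 over all cells. Within clusters Mfge8 was higher in Fcmr-/- cells in 7 of 9 and lower in 2, with intervals apart in 1 cluster each way.

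**Figure D3:**
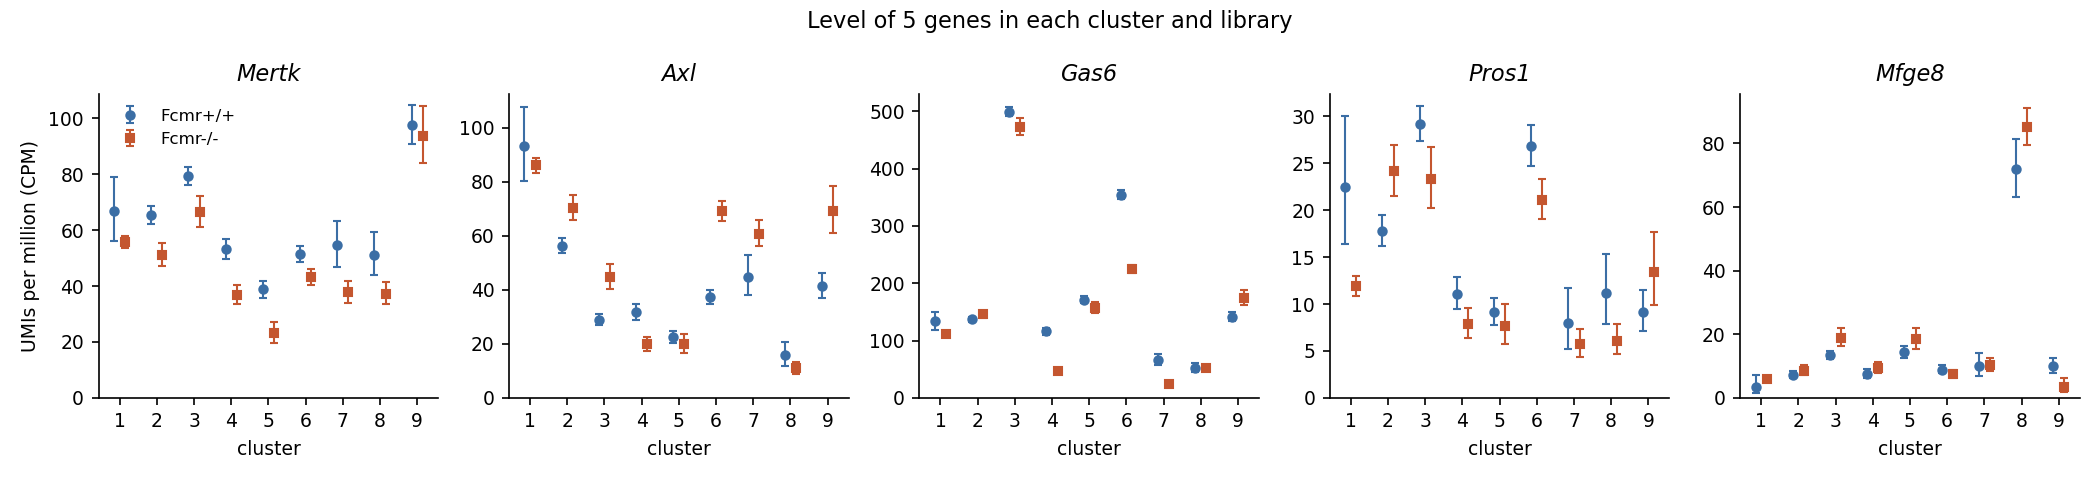
CPM of Mertk, Axl, Gas6, Pros1 and Mfge8 (each panel its own y axis from 0) in clusters 1 to 9, with circles for Fcmr+/+, squares for Fcmr-/- cells and bars for 95% counting intervals. Mertk is highest in cluster 9, Axl in cluster 1, Gas6 in cluster 3 and Mfge8 in cluster 8.

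Most Timd4 came from few cells. Of the 58 Timd4 UMIs of the Fcmr-/- library, 38 were in 13 cells of cluster 2 (2.99 CPM, 2.11 to 4.10), whereas cluster 2 of the Fcmr+/+ library held 3 UMIs in 2 cells (0.119 CPM, 0.0245 to 0.347). Cells with 2 or more Timd4 UMIs numbered 14 in the Fcmr-/- and 3 in the Fcmr+/+ library. The 10 such cells of cluster 2, chosen after their values were seen, were then compared with the other 2254 cells of that cluster after thinning. Of the 8 genes of the Mrc1, Cd163 and Folr2 list, 4 were found more often and 4 less often in the Timd4 cells. The intervals were apart for 2 of them, Cd163 and Lyve1, receptors of tissue-resident macrophages, each found in 4 of the 10 (40.0%, 12.2 to 73.8), against 8.83% (7.69 to 10.1) and 9.63% (8.44 to 10.9) of the others. Of 9 dendritic cell genes, 5 were found more often in the Timd4 cells. The other 4, Flt3, Xcr1, Clec9a and Batf3, were found less often, in 0 of the 10. The intervals were apart for Cd209a, in 3 of the 10 (interval 6.67 to 65.2%) against 4.48% (3.66 to 5.42), and Ccr7, in 2 of the 10 (interval 2.52 to 55.6%) against 1.64% (1.16 to 2.26). Mertk and Axl were each found in 1 of the 10, against 24.0% and 21.7% of the others, with intervals that overlap. These cells had a median of 23164 UMIs before thinning, beside 12995 in the others. The comparison also mixes the libraries unevenly, since 9 of the 10 cells but only 872 of the 2254 others were Fcmr-/-. Among Fcmr-/- cells alone, a comparison added after seeing the data, the intervals were apart for Cd163 (4 of 9 cells, 44.4%, 13.7 to 78.8, against 7.34%, 5.70 to 9.28), and they overlapped for Lyve1 (44.4%, 13.7 to 78.8, against 13.5%, 11.3 to 16.0) and for all 9 dendritic cell genes.

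The positions of Mertk and Axl were then read in the same cells. In the thinned Fcmr+/+ library 4.16% (3.68 to 4.68) of cells had UMIs of both, 21.2% of Mertk only, 9.37% of Axl only and 65.3% of neither. In the thinned Fcmr-/- library 4.43% (3.99 to 4.90) had both, 15.0% Mertk only, 15.8% Axl only and 64.8% neither. Independent occurrence would give 3.43% and 3.93% of cells with both. An Axl UMI was found in 16.4% (14.6 to 18.3) of Fcmr+/+ cells with a Mertk UMI and in 12.6% (11.6 to 13.5) of those without, and in 22.8% (20.7 to 24.98) and 19.6% (18.7 to 20.6) of Fcmr-/- cells. In both libraries cells with one receptor had the other slightly more often.

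That excess was small and depended on the draw. The odds ratio was 1.36 in Fcmr+/+ and 1.21 in Fcmr-/- cells, and 10 further random draws of 5000 UMIs gave 1.08 to 1.297 and 1.18 to 1.44. The Fcmr+/+ value of the first draw thus lay above all 10 further draws, and the values by cluster come from the first draw alone. Taken within clusters and combined, the odds ratio was 1.27 and 1.05. It was over 1 in 8 of 9 clusters of the Fcmr+/+ library (0.98 to 2.38) and in 5 of 9 of the Fcmr-/- library (0.69 to 1.80). Only in cluster 5 of the Fcmr+/+ library were the intervals apart, with an Axl UMI in 14% (8.88 to 20.6) of cells with and 6.41% (4.87 to 8.26) of cells without a Mertk UMI. In the Axl-rich cluster 1 of the Fcmr-/- library the shares were 31.0% (27.1 to 35.2) and 32.1% (29.9 to 34.4). Unthinned cells gave odds ratios of 1.91 and 2.22.

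**Figure D4:**
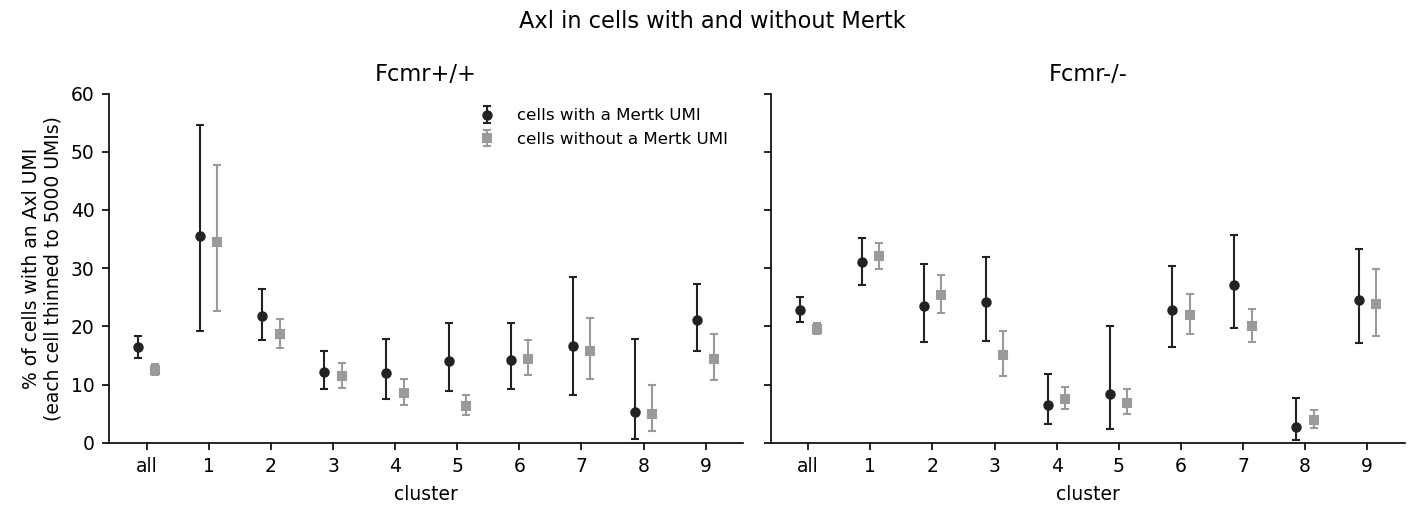
Percent of thinned cells with an Axl UMI (y axis) among cells with a Mertk UMI (dark circles) and without one (gray squares), over all cells and in clusters 1 to 9, for each library, with 95% binomial intervals. The dark and gray points overlap in 17 of 18 clusters by library, and the level changes far more between clusters than between the points of a pair.

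Receptors and ligands were compared in the same way. A Gas6 UMI was found in 49.2% (46.7 to 51.7) of Fcmr+/+ cells with Mertk and 45.1% (43.6 to 46.5) without, and in 35.8% (33.4 to 38.2) and 26.9% (25.8 to 28.0) of Fcmr-/- cells. The odds ratios were 1.18 and 1.51 over all cells and 1.08 and 1.28 within clusters. For Axl the shares with Gas6 were 42.03% (38.7 to 45.4) of Fcmr+/+ cells with an Axl UMI and 46.8% (45.4 to 48.1) of those without, and 28.5% (26.3 to 30.7) and 28.7% (27.5 to 29.8) of Fcmr-/- cells. The ligands went together most closely: 10.5% (9.46 to 11.7) of Fcmr+/+ cells with Gas6 and 5.32% (4.59 to 6.12) of those without had a Pros1 UMI, and 9.0% (7.86 to 10.2) and 4.29% (3.78 to 4.85) of Fcmr-/- cells. Their odds ratio was 2.10 and 2.21 over all cells and 1.55 within clusters in each library. Mfge8 was found less often with Axl in Fcmr-/- cells, in 2.35% (1.67 to 3.21) of cells with an Axl UMI and 4.08% (3.603 to 4.59) of those without.

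The gene programs that went with each receptor were described by splitting the cells of each library into 5 equal parts (quintiles) by the share of their UMIs that came from a marker list. Along a list of 9 interferon gamma-inducible genes, Axl was higher with each quintile in the Fcmr-/- library, at 25.8, 39.8, 55.4, 71.9 and 94.9 CPM. In the Fcmr+/+ library it had 28.7, 31.0, 34.4, 37.9 and 52.9 CPM. The list itself ran from 0 to 481 CPM over the Fcmr+/+ and from 4.56 to 2126 CPM over the Fcmr-/- quintiles. In the lowest quintiles, where these genes were nearly absent, the intervals of Axl overlapped, with 28.7 CPM (26.4 to 31.2) in Fcmr+/+ and 25.8 CPM (23.6 to 28.2) in Fcmr-/- cells. Some other lists shared this overlap, as given below. Mertk moved less. It had 59.9 CPM in the lowest and 68.4 CPM in the highest Fcmr+/+ quintile, and 38.3 and 50.3 CPM in Fcmr-/- cells, and in every quintile it was lower in the Fcmr-/- library. The median depth of the quintiles lay between 13610 and 21789 UMIs in Fcmr+/+ and between 9807 and 15319 UMIs in Fcmr-/- cells. In thinned cells the log2 ratio of Axl from the lowest to the highest quintile was 0.60 in Fcmr+/+ and 1.46 in Fcmr-/- cells, where it was 0.86 and 1.84 before.

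Other lists were read in the same way. Along MHC class II genes, which present antigen to T cells, Axl went from 17.9 to 73.8 CPM in Fcmr+/+ and from 18.7 to 109.0 CPM in Fcmr-/- cells. Gas6 went the other way, from 435 to 102 CPM and from 248 to 59.9 CPM. Along a list of complement C1q and lipid-handling genes, both receptors were higher in the highest quintile, Mertk going from 37.2 to 91.8 CPM and from 26.9 to 72.1 CPM, and Axl from 39.2 to 49.2 CPM and from 34.2 to 86.5 CPM. The log2 ratio of the ends was 1.28 for Mertk and 0.32 for Axl in Fcmr+/+ cells, and 1.39 and 1.31 in Fcmr-/- cells. Axl in Fcmr+/+ cells did not climb steadily, at 39.2, 29.9, 33.0, 37.1 and 49.2 CPM from the lowest to the highest quintile. Along the same list Gas6 went from 61.3 to 336 CPM and from 13.7 to 237 CPM. Along hypoxia genes, Mertk went from 80.7 to 44.3 CPM and from 63.4 to 31.7 CPM, Axl from 45.5 to 20.2 CPM and from 88.8 to 28.1 CPM, and Gas6 from 437 to 69.6 CPM and from 252 to 29.8 CPM. Along the Mmp12 and lysosome list, Mfge8 went from 7.09 to 31.3 CPM and from 4.72 to 48.4 CPM. Axl was lowest where Mrc1, Cd163 and Folr2 were highest, at 14.3 CPM in Fcmr+/+ and 27.3 CPM in Fcmr-/- cells, beside 67.5 and 88.6 CPM in the lowest quintile of that list. In the lowest quintiles, the intervals of Axl overlapped for the MHC class II list and the C1q and lipid list. They were apart, with Axl higher in Fcmr-/- cells, for the Mrc1, hypoxia, and Mmp12 and lysosome lists. The same held for a type I interferon list, with 29.9 CPM (27.7 to 32.1) and 34.6 CPM (32.2 to 37.1). In its highest quintile Axl had 49.1 and 76.7 CPM.

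**Figure D5:**
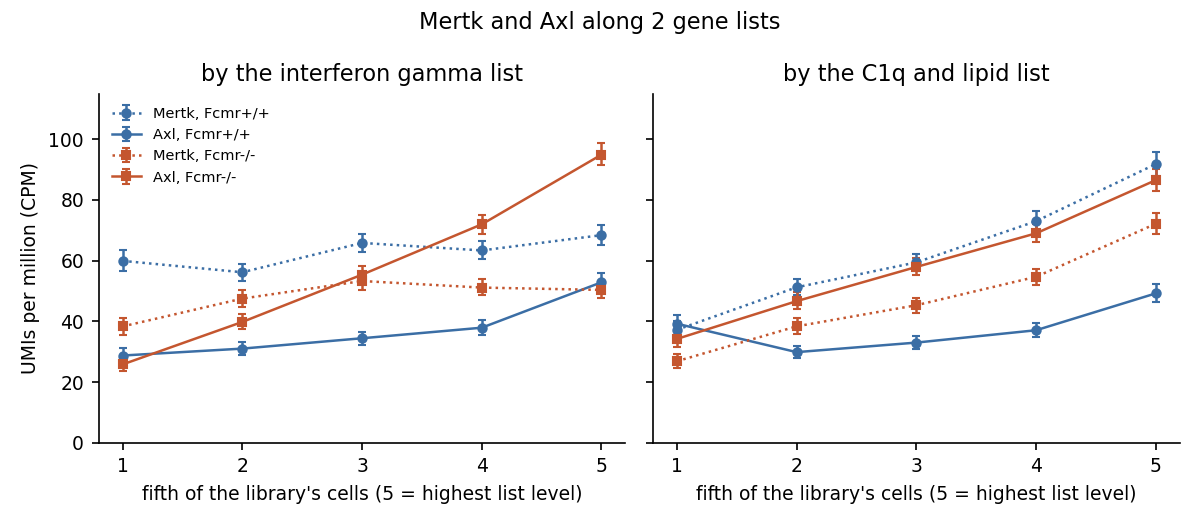
CPM of Mertk (dotted) and Axl (solid) in quintiles of the cells of each library, ordered by the interferon gamma list (left) or the C1q and lipid list (right), with circles for Fcmr+/+, squares for Fcmr-/- cells and bars for 95% counting intervals. On the left Axl climbs to 94.9 CPM in Fcmr-/- cells while Mertk stays between 38.3 and 68.4 CPM, and on the right Mertk climbs in both libraries and Axl climbs from 34.2 to 86.5 CPM in Fcmr-/- cells.

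The same could be read over the 18 groups of cells made by 9 clusters and 2 libraries, which share libraries and are given as a description. Log2 levels of Axl went with the interferon gamma list (r = 0.80) and nearly as closely with the MHC class II list (r = 0.78). They also went with the dendritic cell markers (r = 0.67). Axl went against Mfge8 (r = -0.82) and the Mmp12 and lysosome list (r = -0.76). Mertk went with the C1q and lipid list (r = 0.85) and hardly at all with the interferon gamma list (r = 0.04). Gas6 went with Pros1 (r = 0.79), and Mertk with Axl less closely (r = 0.46). Among 5255 genes with at least 20 CPM, those most like Mertk over these groups were Tmem59 (r = 0.94), Tnfrsf11a, which encodes the receptor RANK (0.93), Fam195b (0.93), the deubiquitinase Otub1 (0.90) and Chmp1a of the ESCRT-III machinery (0.89). Those most like Axl were Ly86, the MD-1 partner of the receptor RP105 (0.94), Aif1, which encodes the macrophage protein Iba1 (0.92), the lipid enzyme Lpcat2 (0.92), Tmem173, which encodes the DNA-sensing adaptor STING (0.92), and Ms4a6b (0.91).

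Few other genes of efferocytosis were past the fold. Of 73 listed genes, 62 had at least 5 CPM in either library, and 5 of these were past 1.5-fold higher (8.06%) and 0 past 1.5-fold lower in Fcmr-/- cells, beside 2.4% and 1.69% of all 8701 genes. The median log2 ratio of the 62 was 0.02, beside 0.00 over all 8701 genes. The genes past the fold included the phosphatidylserine receptor Cd300lf (86.9 and 138 CPM), the scavenger receptor Scarf1 (6.65 and 11.2 CPM), the phosphatase Ptpn6 (SHP-1), which acts below the do-not-eat-me receptor SIRP alpha (118 and 185 CPM), and the cytokine signaling inhibitor Socs1 (8.64 and 16.0 CPM). By role, 2 of 11 other receptors and integrins were higher, as were 0 of 7 other bridges and ligands, 0 of 5 find-me receptors and 0 of 9 engulfment genes. The same count was 0 of 17 digestion and cholesterol genes, 1 of 5 genes of the do-not-eat-me pathway and 2 of 8 genes of TAM shedding and signaling.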

How the data were processed

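For 2 droplet libraries (10x Genomics single-cell 3' chemistry) the authors deposited tables of raw UMI counts from Cell Ranger on GRCm38, neither normalized nor filtered beyond that program's cell calls. Following the study, cells with 200 to 7000 genes and at most 30% mitochondrial UMIs and genes in at least 3 cells were kept, and cells were clustered in Seurat 5.3.0 (R 4.3.3; the study used 2.1.0) on variable genes (log means of 0.0125 to 3, dispersions above 0.5), with 10 principal components and a resolution of 0.8. The 7 members were left out of the 1336 variable genes, of which Axl, Gas6 and Mfge8 were 3. UMIs were summed per library or cluster and given as CPM in Python 3.11.15, and 1 CPM was added before log2. A fold was called at 1.5 among genes with at least 5 CPM in either library. Scrublet (scanpy 1.11.5) called 0 doublets in each library and so did not work here, and leaving out the 5% of cells with the highest scores replaced it. Fold calls, thinning and odds ratios were tested on simulated data. The members, gene lists and alternatives were chosen with earlier results of these data known. Named genes were the members, the sort genes and Fcmr, listed efferocytosis genes past 1.5-fold (1 of them is counted but not reported here), the 5 genes most like Mertk and Axl, and the leading genes of clusters. Promoters were matched by symbol for 7 of 7 members.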

Additional observations from a re-analysis of the deposited data

Results flagged for a closer look

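Opposite genotype differences, each with the CPM intervals of the libraries apart, were found in pairs of clusters for 4 genes. None of these differences between clusters was tested, since each cluster holds 1 sample per genotype. In shares of thinned cells with a UMI, the intervals were apart only for Axl in cluster 6 and Gas6 in cluster 7. They overlapped for Axl in cluster 4, Gas6 in cluster 9, Pros1 in clusters 1 and 2, and Mfge8 in clusters 3 and 9. For Axl, the log2 ratio (Fcmr-/- over Fcmr+/+) was 0.87 in the dividing cluster 6 and -0.65 in the Cxcl3-led cluster 4, a difference of 1.51. For Gas6 it was 0.30 in the Apoe-led cluster 9 and -1.42 in the Rsad2-led cluster 7, a difference of 1.72. For Pros1 it was 0.42 in the Ccl17-led cluster 2 and -0.86 in the Iigp1-led cluster 1, a difference of 1.28, with 92 Fcmr+/+ cells in cluster 1. For Mfge8 it was 0.48 in the Tfrc-led cluster 3 and -1.28 in cluster 9, a difference of 1.75.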

How the results depend on the processing

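No paired analysis was possible because each genotype has 1 library, and for the same reason no replicate could be left out. Genotype differences within single clusters were not rerun under the alternatives, so how far they depend on the processing is not known. No difference between the whole libraries whose intervals were apart changed its direction under the alternatives run. Differences within counting error did: that in the percent of cells with Mfge8 was -0.32 and became 0.15 at 3000 UMIs, that with Tyro3 was 0.022 and became -0.017 without thinning and -0.035 at 3000 UMIs, and the log2 ratio of Tyro3, near 0 throughout, changed sign under 3 alternatives (lowest -0.013). The log2 ratio of Mertk between the libraries was -0.42 with at most 5000 genes per cell, -0.46 as a mean over cells, -0.47 in thinned cells and -0.44 without cells holding a T and NK cell or melanoma UMI. That of Axl was 0.64 with 5 CPM added, 0.59 as a mean over cells, 0.25 with the same cluster weights in both libraries and 0.47 without clusters 1, 7 and 8, the last an alternative chosen after seeing the data. That of Gas6 was -0.26, -0.48 and -0.77 with the same cluster weights in both libraries, without clusters 1, 7 and 8, and without cells holding a T and NK cell or melanoma UMI. The difference in the percent of cells with a UMI was -15.3 for Mertk and -20.3 for Gas6 without thinning, 4.58 for Axl and -14.7 for Gas6 at 3000 UMIs, and 11.3 for Axl at 10000 UMIs. The same-cell odds ratio of Mertk and Axl was 1.91 (Fcmr+/+) and 2.22 (Fcmr-/-) without thinning, 1.03 (Fcmr+/+) at 3000 UMIs and 1.08 in the lowest of 10 further draws, also added later. Between the highest and lowest cluster, the log2 ratio of Mertk was 2.32 at resolution 1.2, 1.83 without interferon genes and 1.69 with 20 components. That of Axl was 2.22 at resolution 0.4 and 3.28 without interferon genes, and that of Gas6 was 2.30 and 5.09 at resolutions 0.4 and 1.2 and 4.48 with 20 components. The clusters compared also changed. The highest Mertk cluster was led by Tfrc at resolution 0.4 and Atp6v0d2 at 1.2. It was led by Acp5 without interferon genes and Wfs1 with 20 components. The lowest Gas6 cluster was led by Cxcl3, Cxcl3, Hbb-bs and Cd209a in the same order. The highest Gas6 cluster was led by Tfrc throughout. Between the ends of the interferon gamma list, 3 parts in place of 5 gave 0.24 for Mertk in Fcmr-/- cells and 0.61 and 1.395 for Axl in Fcmr+/+ and Fcmr-/- cells, and thinning gave 0.60 and 1.46 for Axl. Other efferocytosis genes past the fold numbered 3 with at least 20 CPM and 1 at 2-fold. The cause of these shifts was not tested. Depth limits Tyro3 and Timd4, whose 10 to 58 UMIs per library allow no cluster-level comparison beyond cluster 2.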

Other observations

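Along the Mrc1, Cd163 and Folr2 list, Gas6 ran against Axl, with 49.4 CPM in the lowest and 346 CPM in the highest quintile of Fcmr+/+ cells, and 16.0 and 232 CPM in Fcmr-/- cells. The 5 genes most like Gas6 over clusters and libraries, named after their values were seen, were Npl, Igfbp4, Cela1, Prkacb and Agpat3 (r from 0.94 to 0.97, over 18 groups that share libraries).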
